A study of Mus musculus with 13 samples.

Results

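The TCF and LEF factors are 4 genes in the mouse, Lef1, Tcf7, Tcf7l1 and Tcf7l2, and all 4 were found among the 55450 genes of the annotation used here. They encode DNA-binding proteins of the high-mobility-group family that carry the transcriptional output of Wnt signalling. Without a Wnt signal they hold target genes down together with Groucho/TLE corepressors, and when β-catenin is stabilized it binds them and brings in coactivators. Lef1 and Tcf7 are themselves known targets of the pathway, Tcf7l1 is mostly known as a repressor, and in melanocytic cells LEF1 is known as a partner of β-catenin and MITF.

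Peaks of the histone mark H3K27ac, acetylation of lysine 27 of histone H3, were collected at each gene in 9 mouse melanoma cell lines. The mark is found at active promoters and enhancers, and a peak list gives the regions where chromatin immunoprecipitation with sequencing (ChIP-seq) found it above background. Members were chosen by name. For each, every peak overlapping the gene body with 10 kb on each side was taken, and the length under those peaks in kb is called the covered length. Promoter calls required a peak no more than 1 kb from a transcription start site (TSS) in the annotation. The strength of a peak is given as the percentile of its −log10 q within its own list, 100 being the strongest.

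All lines came from melanomas of mice that carried the Tyr::NRAS Q61K transgene, expressed in the melanocyte lineage, were heterozygous for Cdkn2a and had a floxed Cdh1 gene on both alleles. In ΔEcad mice the Tyr::CreA transgene deleted Cdh1, the gene of E-cadherin, in that lineage, and Ecad mice had no Cre. The male Ecad lines were Ma_1007 and Ma_1181, the female Ecad lines Ma_1014 and Ma_1039, the male ΔEcad lines Ma_1062 and Ma_1456, and those of female ΔEcad mice Ma_1057, Ma_1064 and Ma_1069. Each line gave 1 list, so the line was the replicate and each group held 2 or 3 lines. The 4 input libraries were not analysed here.

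The lists held 20741 to 41663 peaks and covered 29.5 to 67.2 Mb, with the shortest in female ΔEcad line Ma_1069 and the longest in male Ecad line Ma_1007. In female ΔEcad lines 29.5 to 39.5 Mb was covered, and in the other 6 lines 37.1 to 67.2 Mb. The lists carry no read counts, so their depth is unknown, and a missing peak means no peak past the deposited threshold. Of 7 melanocytic marker promoters, 6 were called in all 9 lists, whereas 0 of 6 T cell, 0 of 3 keratinocyte and 0 of 3 endothelial marker promoters were called in any. Of 3 fibroblast markers, 1 was called, in 1 list (Pdgfra). Some of these other markers had peaks in the gene body: Pecam1 in 8 lists, Pdgfra in 7, Trp63 in 4, Ptprc in 2, and Cdh5 and Lum in 1 each. The Cdh1 promoter was called in 0 of 9 lists, Ecad lines included, so this check did not separate the genotypes. Peaks in the Cdh1 gene body covered 5.14 to 8.78 kb in the 4 Ecad lines, 1.66 to 3.16 kb in the female ΔEcad lines, 4.45 kb in male ΔEcad line Ma_1062 and 7.38 kb in male ΔEcad line Ma_1456, which lay inside the Ecad range.

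The regions around the annotated starts of the 4 genes are shown first, because promoter calls separated them. Each is the 250 bases before the outermost annotated start on the gene's strand, RefSeq model transcripts included, in GRCm38, with CG dinucleotides in capitals. They were read from the RefSeq genome, and the choice of what to print was made after the calls were seen.
Lef1, chr3:131110047-131110296, plus strand, called in 6 lists: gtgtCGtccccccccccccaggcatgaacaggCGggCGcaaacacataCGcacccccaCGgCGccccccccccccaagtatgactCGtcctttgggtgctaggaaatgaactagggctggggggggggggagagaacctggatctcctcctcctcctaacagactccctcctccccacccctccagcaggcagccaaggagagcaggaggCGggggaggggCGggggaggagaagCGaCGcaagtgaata
Tcf7, chr11:52283384-52283633, minus strand, called in 5 lists: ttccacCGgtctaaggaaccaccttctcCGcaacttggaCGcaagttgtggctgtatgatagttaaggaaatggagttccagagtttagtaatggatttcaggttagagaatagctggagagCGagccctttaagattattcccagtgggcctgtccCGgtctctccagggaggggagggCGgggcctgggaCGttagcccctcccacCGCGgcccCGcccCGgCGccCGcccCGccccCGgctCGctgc
Tcf7l1, chr6:72789255-72789504, minus strand, called in 2 lists: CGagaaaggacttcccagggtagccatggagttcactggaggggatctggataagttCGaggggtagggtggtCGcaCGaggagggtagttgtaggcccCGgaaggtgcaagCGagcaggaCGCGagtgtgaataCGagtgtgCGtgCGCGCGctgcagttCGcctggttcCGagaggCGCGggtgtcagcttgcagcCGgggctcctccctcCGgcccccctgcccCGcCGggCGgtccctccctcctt
Tcf7l2, chr19:55741547-55741796, plus strand, called in 8 lists: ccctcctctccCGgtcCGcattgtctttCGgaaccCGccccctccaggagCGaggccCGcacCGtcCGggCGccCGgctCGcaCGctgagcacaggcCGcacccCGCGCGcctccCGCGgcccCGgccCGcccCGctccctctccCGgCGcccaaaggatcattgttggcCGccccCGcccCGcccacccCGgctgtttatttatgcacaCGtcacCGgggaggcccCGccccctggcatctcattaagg

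Lef1 and Tcf7l2 also have starts far inside the gene, from which shorter proteins without the β-catenin-binding end are known to be made. The 250 bases before the far internal RefSeq start of Lef1 are given for comparison, since a peak lay within 1 kb of neither of these RefSeq starts in any list.
Lef1 internal start, chr3:131156044-131156293, plus strand, called in 0 lists: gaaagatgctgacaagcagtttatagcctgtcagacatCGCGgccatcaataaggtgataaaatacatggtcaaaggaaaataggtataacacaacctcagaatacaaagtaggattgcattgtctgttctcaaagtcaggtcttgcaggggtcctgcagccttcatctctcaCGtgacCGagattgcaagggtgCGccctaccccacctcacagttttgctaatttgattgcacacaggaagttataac

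The outermost starts were rich in CG dinucleotides and these far internal starts were not. The 250 bases before them held 11 CG dinucleotides at Lef1, 16 at Tcf7, 22 at Tcf7l1 and 30 at Tcf7l2, against 5 at the internal Lef1 start and 7 at the internal Tcf7l2 start. The median of 32851 RefSeq promoters was 6.00. The Tcf7l1 stretch held more of them than those of Lef1 and Tcf7 and was called in fewer lists, so the calls did not follow this count.

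For Tcf7 the annotations differ. Its outermost start in GENCODE M21 lies inside the first coding exon of RefSeq model transcripts that start 369 bp further upstream, at position 52283383. The nearest peak to the model start was 94 to 244 bp away in the 5 lists with a call. The calls at this start were made in the same 5 lists, and this start was added after the peaks were seen.

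Lef1, the factor named for its discovery in lymphoid cells, lies at chr3:131110471-131224356 on the plus strand. Its covered length was 2.87 and 4.22 kb in the male Ecad lines Ma_1007 and Ma_1181, 0 kb in both female Ecad lines, 0 kb in male ΔEcad line Ma_1062 and 10.1 kb in male ΔEcad line Ma_1456. Among female ΔEcad lines it was 10.5 kb in Ma_1057, 5.02 kb in Ma_1064 and 6.85 kb in Ma_1069. The female ΔEcad lines were thus all above both female Ecad lines, as was so for 5.69% of all genes, and the male ΔEcad lines lay on either side of the male Ecad lines.

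Tcf7, which encodes TCF1 and is best known from T cells, lies at chr11:52252371-52283014 on the minus strand. Its covered length was 4.99 and 7.36 kb in male Ecad lines Ma_1007 and Ma_1181, and 0 kb in both female Ecad lines and both male ΔEcad lines. In female ΔEcad lines Ma_1057, Ma_1064 and Ma_1069 it was 7.90, 1.44 and 10.2 kb. Peaks at Tcf7 were therefore present in every male Ecad and female ΔEcad list and in no other. The T cell markers Cd3d, Cd3e, Cd3g, Cd4 and Cd8a had no peak in their gene bodies in any of the 9 lists, and Ptprc had one in 2 lists with no promoter call.

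Tcf7l1, which encodes TCF3, lies at chr6:72626378-72789254 on the minus strand and had peaks in every list. Its covered length was 13.5 and 13.9 kb in male Ecad lines Ma_1007 and Ma_1181, and 10.3 and 7.66 kb in female Ecad lines Ma_1014 and Ma_1039. It was 3.25 and 3.29 kb in male ΔEcad lines Ma_1062 and Ma_1456, and 1.62, 5.79 and 2.38 kb in female ΔEcad lines Ma_1057, Ma_1064 and Ma_1069. All 4 Ecad lines were above all 5 ΔEcad lines. Within females 38.3% of all genes had every ΔEcad line below every Ecad line, and within males 23.0% had.

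Tcf7l2, which encodes TCF4, lies at chr19:55741820-55933654 on the plus strand and also had peaks in every list. Its covered length was 11.7 and 12.4 kb in male Ecad lines Ma_1007 and Ma_1181, 6.05 and 7.56 kb in female Ecad lines Ma_1014 and Ma_1039, and 10.6 and 3.28 kb in male ΔEcad lines Ma_1062 and Ma_1456. In female ΔEcad lines Ma_1057, Ma_1064 and Ma_1069 it was 5.48, 5.97 and 11.5 kb. The male Ecad lines were the highest and the other groups overlapped.

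**Figure D1:**
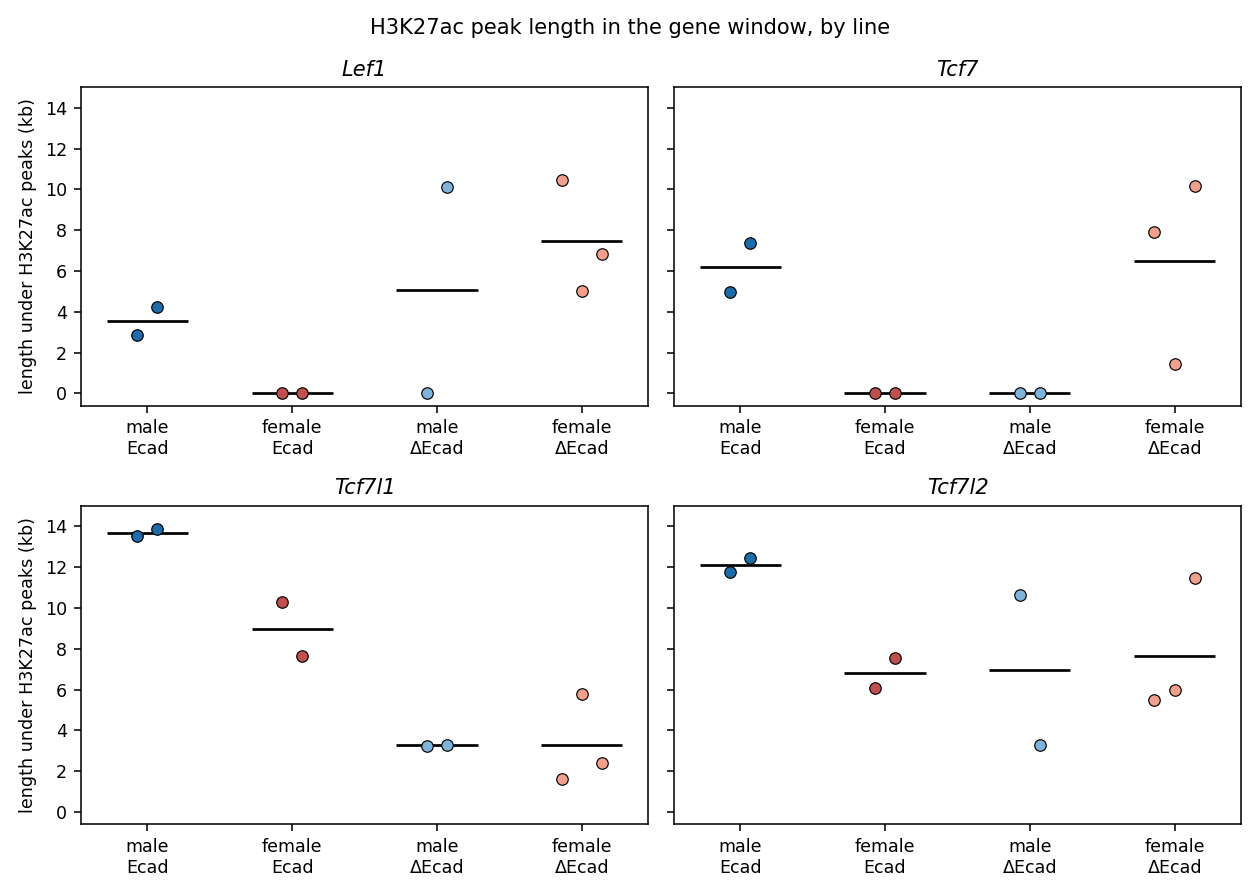
Length under H3K27ac peaks (kb) in the window of each gene; each point is 1 line and each horizontal bar is the group mean. Tcf7l1 lies between 7.66 and 13.9 kb in the 4 Ecad lines and between 1.62 and 5.79 kb in the 5 ΔEcad lines, and Tcf7 is at 0 kb in the female Ecad and male ΔEcad lines.

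Whether E-cadherin loss went with a different covered length was asked by comparing the 5 ΔEcad with the 4 Ecad lines. Tcf7l1 was lower in ΔEcad lines, at 3.26 ± 1.57 kb (SD, n = 5) against 11.3 ± 2.93 kb (SD, n = 4), a difference of -8.07 kb (exact two-sided permutation test, p = 0.00794, the smallest the design allows). The ranges of the groups did not overlap. After Benjamini-Hochberg adjustment over the 28502 genes with a peak, the exact p became 0.240. Of all those genes, 15.0% were called at an exact p under 0.05 and 14.7% were called lower and 0.302% higher in ΔEcad lines, while 5.44% were lower with ranges that did not overlap, so a call of this kind was common in these lists. The call held with each line left out in turn, with differences of -9.30 to -7.23 kb and exact p of 0.0179 to 0.0286. Per Mb covered by the list, which scales for list length, the difference was -148 bp per Mb (exact p = 0.00794), where 6.97% of all genes were called lower.

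The other members were not called in this comparison. Lef1 stood at 6.49 ± 4.28 kb (SD, n = 5) in ΔEcad lines and 1.77 ± 2.12 kb (SD, n = 4) in Ecad lines, with an exact permutation p of 0.0952. With a line left out the exact permutation p was 0.0286 to 0.200. It was under 0.05 only without line Ma_1062, which had no Lef1 peak. The difference for Tcf7 was 0.812 kb (exact permutation p = 0.794) and that for Tcf7l2 was -2.08 kb (exact permutation p = 0.373). These tests do not show that the lines were alike, given SDs of 2.12 to 4.78 kb.

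Female ΔEcad lines were next set against the other 6 lines. No member was called, whereas 22.0% of all genes were, with 20.2% lower and 1.75% higher in female ΔEcad lines. Lef1 was at 7.45 ± 2.78 kb (SD, n = 3) against 2.87 ± 3.97 kb (SD, n = 6), with an exact permutation p of 0.107. With a line left out the exact permutation p was 0.0179 to 0.286, and under 0.05 only without line Ma_1456. Tcf7 was at 6.50 ± 4.52 kb (SD, n = 3) against 2.06 ± 3.27 kb (SD, n = 6), with an exact permutation p of 0.179. With a line left out the exact permutation p was 0.0357 to 0.500, and under 0.05 only without line Ma_1181 or line Ma_1064. Per Mb covered by the list the differences were 163 and 161 bp per Mb, and each then had an exact permutation p of 0.0357, a call shared by 5.49% of all genes in that direction. Tcf7l1 differed by -5.39 kb (exact permutation p = 0.119) and Tcf7l2 by -0.975 kb (exact permutation p = 0.702).

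Between the 5 female and 4 male lines no member was called either, with 10.4% of all genes called, 9.97% lower and 0.379% higher in females. The differences were 0.170 kb for Lef1, 0.812 kb for Tcf7, -2.93 kb for Tcf7l1 and -2.22 kb for Tcf7l2, with exact permutation p of 0.333 to 0.952.

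The genotype difference was then compared between the sexes by permuting genotype within each sex. The permutation takes as its null that genotype made no difference in either sex. A small p therefore does not by itself show that the sexes differed. At Tcf7 the difference between ΔEcad and Ecad lines was 6.50 kb in females and -6.17 kb in males. The sexes differed by 12.7 kb (exact two-sided permutation test, p = 0.0333), which after adjustment over all genes became an exact p of 0.611. Of all genes 5.27% were called in this test, 1.53% with the higher difference in females, and 1.69% had every female ΔEcad line above and every male ΔEcad line below the Ecad lines of its sex. The last share was counted after the Tcf7 values were seen. With only gene-body peaks, only the stronger part of each list, or lists of equal length, the exact p was 0.0667, so the call rests on the window and the threshold. It was also lost without line Ma_1014, Ma_1039, Ma_1062 or Ma_1456 (exact p of 0.0667 to 0.0833), and without line Ma_1057, Ma_1064 or Ma_1069 (exact p = 0.0556), where no exact p under 0.0556 could be had.

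With all lines kept, the other members did not pass this test. The sexes differed by 5.94 kb at Lef1, 4.70 kb at Tcf7l1 and 5.97 kb at Tcf7l2, with exact permutation p of 0.30 to 0.450. Without line Ma_1456 the Lef1 difference was 11 kb and passed the test (exact permutation p = 0.0333, the smallest possible in that set). Without line Ma_1062 the Lef1 difference was 0.891 kb, and without any line but Ma_1456 it did not pass. The Tcf7l2 difference was 2.29 kb without line Ma_1456 and 9.65 kb without line Ma_1062, and passed the test in neither case. In simulated data the test found 95.0% of genes changed by a factor of 3 in opposite directions in the sexes. It found 24.0% of genes changed by that factor in female ΔEcad lines alone. Those data were unlike the deposited lists, so these rates are not the power of the test here. A missed call was not read as the absence of an effect in 1 sex. The exact permutation test cannot give a p under 0.05 within 1 sex, and no other test was run there.

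**Figure D2:**
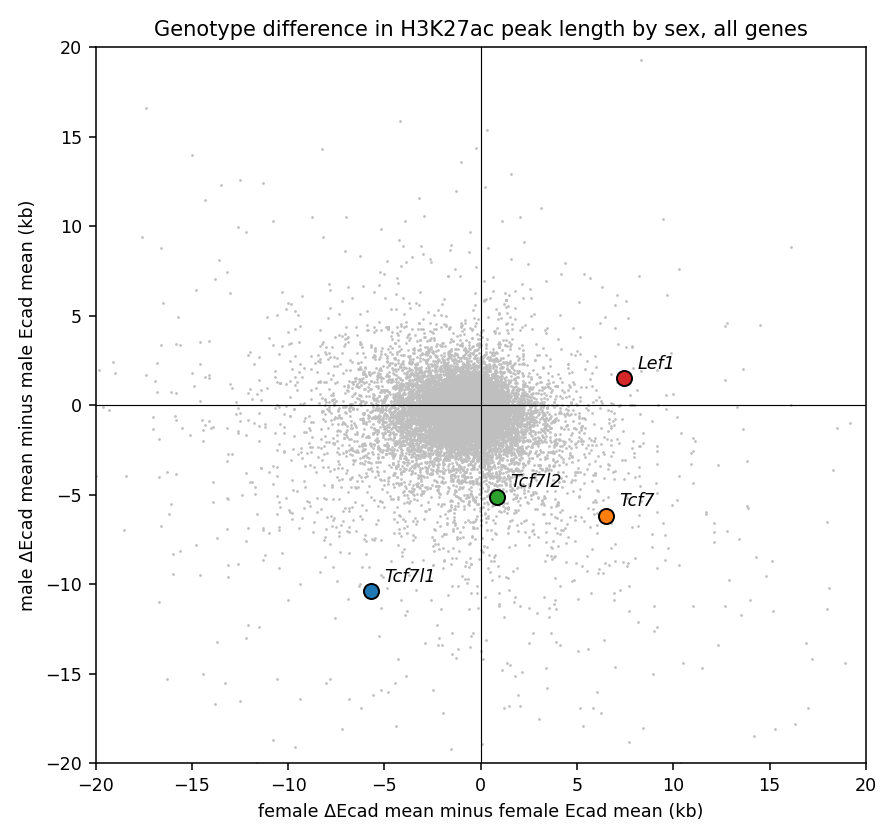
Difference in covered length between ΔEcad and Ecad lines (kb), females on the horizontal and males on the vertical axis; each grey point is 1 of 28502 genes, of which 92 lie beyond the axes, and the 4 members are coloured. Tcf7 lies at 6.50 kb in females and -6.17 kb in males, and Tcf7l1 is below 0 in both sexes.

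Promoter calls differed between the 4 genes and between the lines. The Tcf7l2 promoter was called in all 9 lists, that of Lef1 in 6, that of Tcf7 in 5 and that of Tcf7l1 in 2. Of 16471 genes with a called promoter, 36.0% were called in all 9 lists. Both male Ecad lists called all 4 promoters, each female ΔEcad list called 3, male ΔEcad lines Ma_1456 and Ma_1062 called 2 and 1, and each female Ecad list called 1.

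The Lef1 promoter was called in both male Ecad lists, in male ΔEcad line Ma_1456 and in all 3 female ΔEcad lists. In lines Ma_1007 and Ma_1181 the peak was at the 87.5th and 86.9th percentile of its list, in line Ma_1456 at the 54.5th, and in lines Ma_1057, Ma_1064 and Ma_1069 at the 72.7th, 49.4th and 73.5th. The peak was thus ranked highest in the male Ecad lines, although those lines had less covered length over the gene than the other 4 lines with a call.

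The Tcf7 promoter was called in both male Ecad lists and all 3 female ΔEcad lists and in none of the other 4, a pattern that 0.164% of the genes showed (27 genes, counted after the calls were seen). Calls in all 3 female ΔEcad and no female Ecad list were found at 0.959% of genes, and calls in both male Ecad and no male ΔEcad list at 6.08%. At the GENCODE start the peak reached the 64.0th and 52.6th percentile in lines Ma_1007 and Ma_1181 and the 47.8th and 67.5th in lines Ma_1057 and Ma_1069. In line Ma_1064 the call came from a peak upstream of the start, at the 38.2nd percentile, and was lost when peaks had to lie within 500 bp. That peak is 244 bp from the RefSeq model start, from which all 5 lists had a peak within 500 bp. The antisense gene A630014C17Rik overlaps these promoter peaks, so they cannot be assigned to Tcf7 alone.

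The Tcf7l1 promoter was called in the male Ecad lines alone, at the 71.3rd percentile in line Ma_1007 and the 54.8th in line Ma_1181. Of the genes with a called promoter, 2.4% had calls in the male Ecad lists alone. The 2 female Ecad lines had no promoter call, although they had 10.3 and 7.66 kb of peaks within the gene window.

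The Tcf7l2 promoter peak was at the 92.2nd and 94.4th percentile in male Ecad lines Ma_1007 and Ma_1181 and at the 86.0th in male ΔEcad line Ma_1062. In male ΔEcad line Ma_1456 it was at the 10.2nd percentile and 421 bp wide, and it lay within 1 kb only of a start 1025 bp into the gene. That start belongs to a transcript annotated as a retained intron, not as protein-coding. The peak was 523 bp from it, so the call was lost when peaks had to lie within 500 bp. Line Ma_1456 had the least covered length of all 9 lines at Tcf7l2 and was among the highest at Lef1.

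No member's promoter calls passed Fisher's exact test in any of the 3 comparisons, where 7.80% of genes passed for female ΔEcad against the other lines, 5.30% for ΔEcad against Ecad and 2.77% for female against male. For Tcf7l1 the calls were 0 of 5 ΔEcad and 2 of 4 Ecad lists (Fisher's exact p = 0.167). The far internal starts of Lef1, Tcf7l1 and Tcf7l2, those 45823 bp or more into the gene, were called in 0 lists.

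**Figure D3:**
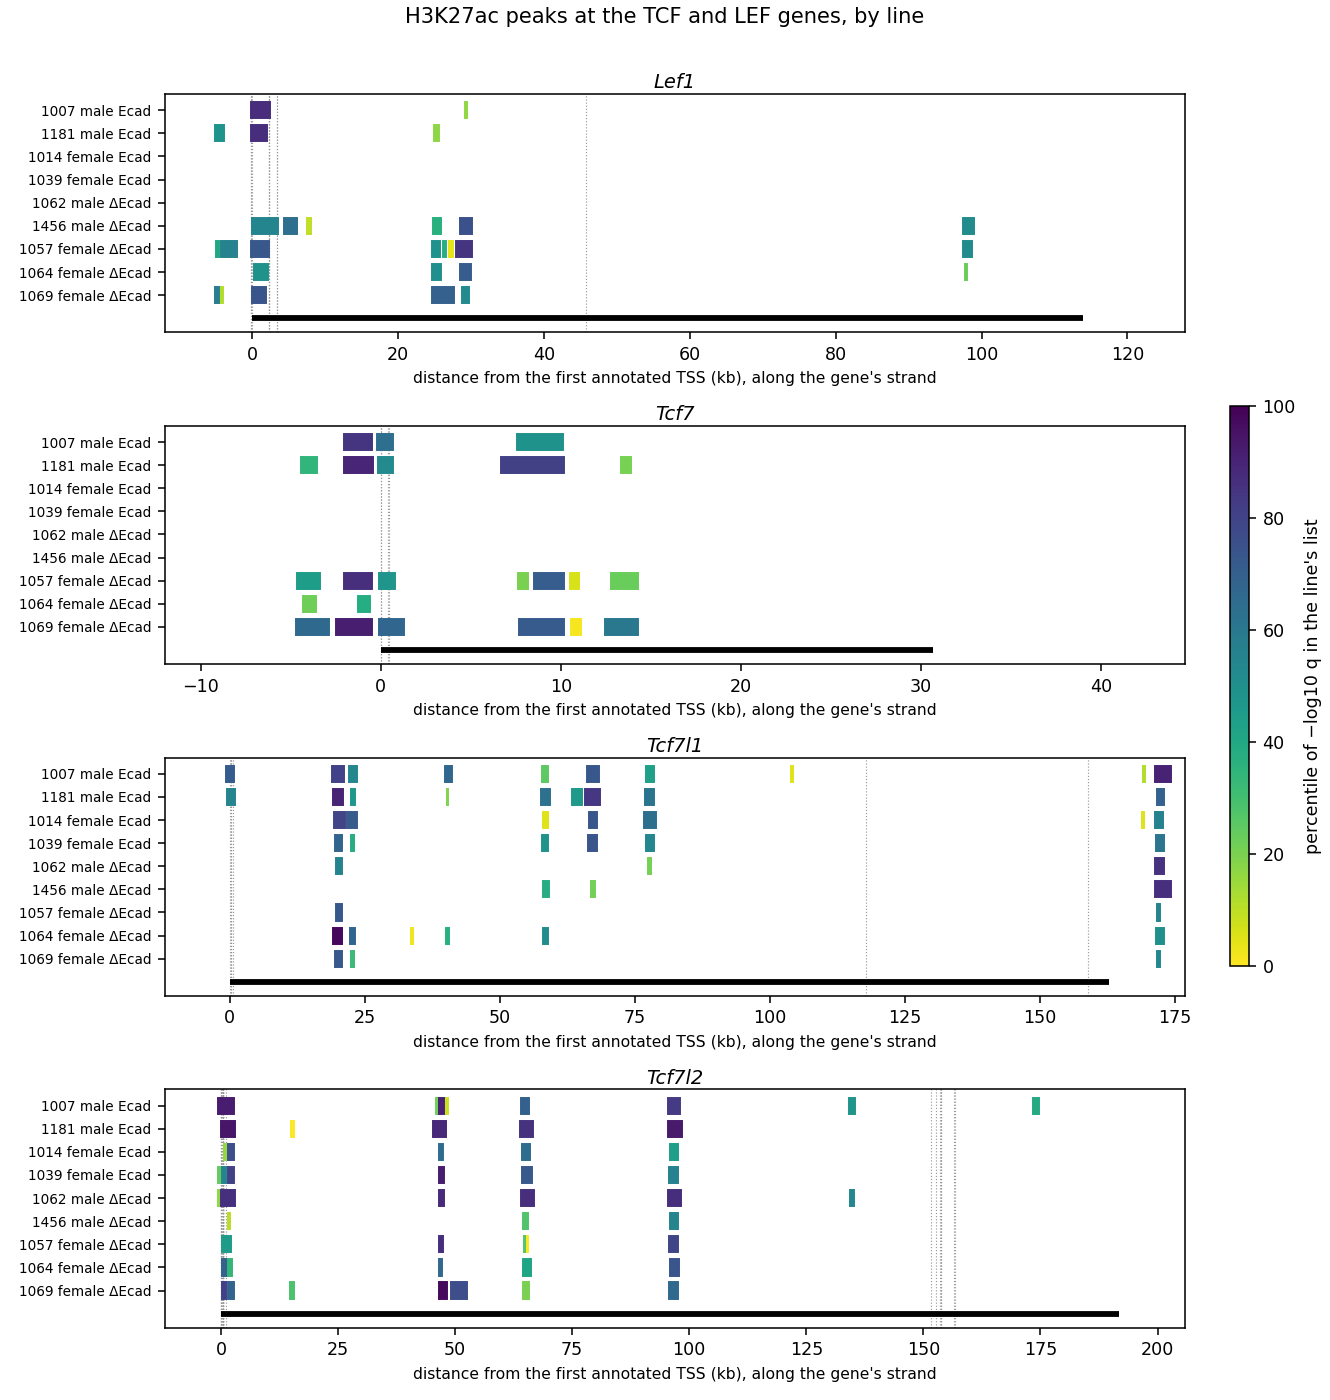
Peaks of each line along the 4 genes, placed by distance (kb) from the first annotated start of the gene; colour is the percentile of the peak's −log10 q in its list, the black bar is the gene body and dotted lines are annotated starts. At Tcf7l2, 4 of 8 elements were called in 8 or 9 lists and the other 4 in 1 or 2, Tcf7 peaks lie upstream of the start, at it and in the first part of the gene, and the Tcf7l1 window holds 6 to 10 peaks in Ecad lines and 2 to 6 in ΔEcad lines, with 6 in both Ma_1039 and Ma_1064.

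Peaks of the 9 lists that overlapped were merged into elements, 33 in all: 7 at Lef1, 6 at Tcf7, 12 at Tcf7l1 and 8 at Tcf7l2. Every list called 4 of them and a lone list called 7, whereas 13.7% of 59668 merged regions of the whole series were called in 9 lists and 34% in 1. The members of an element set share a gene and are not independent.

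At Tcf7l2, 3 elements were called in all 9 lists. They were the promoter element at chr19:55741122-55744846 and intron elements at chr19:55805630-55808609 and chr19:55837243-55840325. The last ranged from the 43.8th percentile in line Ma_1014 to the 93.2nd in line Ma_1181. A further intron element at chr19:55787126-55790196 was called in 8 lists, all but line Ma_1456, at the 64.8th to 97.6th percentile.

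At Tcf7l1 the element in all 9 lists, chr6:72614862-72617930, lies at the promoter of the neighbouring gene Tgoln1 and only partly in the window. With only peaks in the gene body counted, Tcf7l1 was still lower in ΔEcad lines, by -7.29 kb (exact permutation p = 0.00794). The strongest intron element, chr6:72767966-72770271, was called in 8 lists and reached the 97.9th percentile in female ΔEcad line Ma_1064. Elements at chr6:72720651-72723429 and chr6:72710253-72712483 were each called in all 4 Ecad lists and in 1 of 5 ΔEcad lists, line Ma_1456 for the former and line Ma_1062 for the latter. The promoter element, chr6:72788178-72789852, was the only one of the 33 called in every list of 1 group and in no other.

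At Tcf7 the element ranked highest lay just upstream of both the GENCODE and the RefSeq model start, chr11:52283477-52285534, at the 84.5th and 89.5th percentile in male Ecad lines Ma_1007 and Ma_1181 and the 86.7th, 38.2nd and 91.7th in Ma_1057, Ma_1064 and Ma_1069, the female ΔEcad lines. The widest, chr11:52272830-52276319, is an intron element of 3490 bp called in 4 lists. An antisense gene, A630014C17Rik, overlaps both, so the peaks cannot be assigned to Tcf7 alone. The same holds for the element at the GENCODE start, chr11:52281752-52283233, and the one furthest upstream, chr11:52285907-52287748.

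At Lef1 the widest element was the promoter element, chr3:131110286-131113947, of 3662 bp. Beyond it, the intron element at chr3:131138420-131140615 was at the 16.6th percentile in male Ecad line Ma_1007, not called in line Ma_1181, and at the 75.3rd, 84.7th, 70.8th and 52.4th in ΔEcad lines Ma_1456, Ma_1057, Ma_1064 and Ma_1069. The antisense gene Gm43352 overlaps the promoter element and Gm42449 overlaps that intron element, so their peaks cannot be assigned to Lef1 alone. An intron element near the 3′ end, chr3:131207984-131209418, was called in lines Ma_1456, Ma_1057 and Ma_1064.

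**Figure D4:**
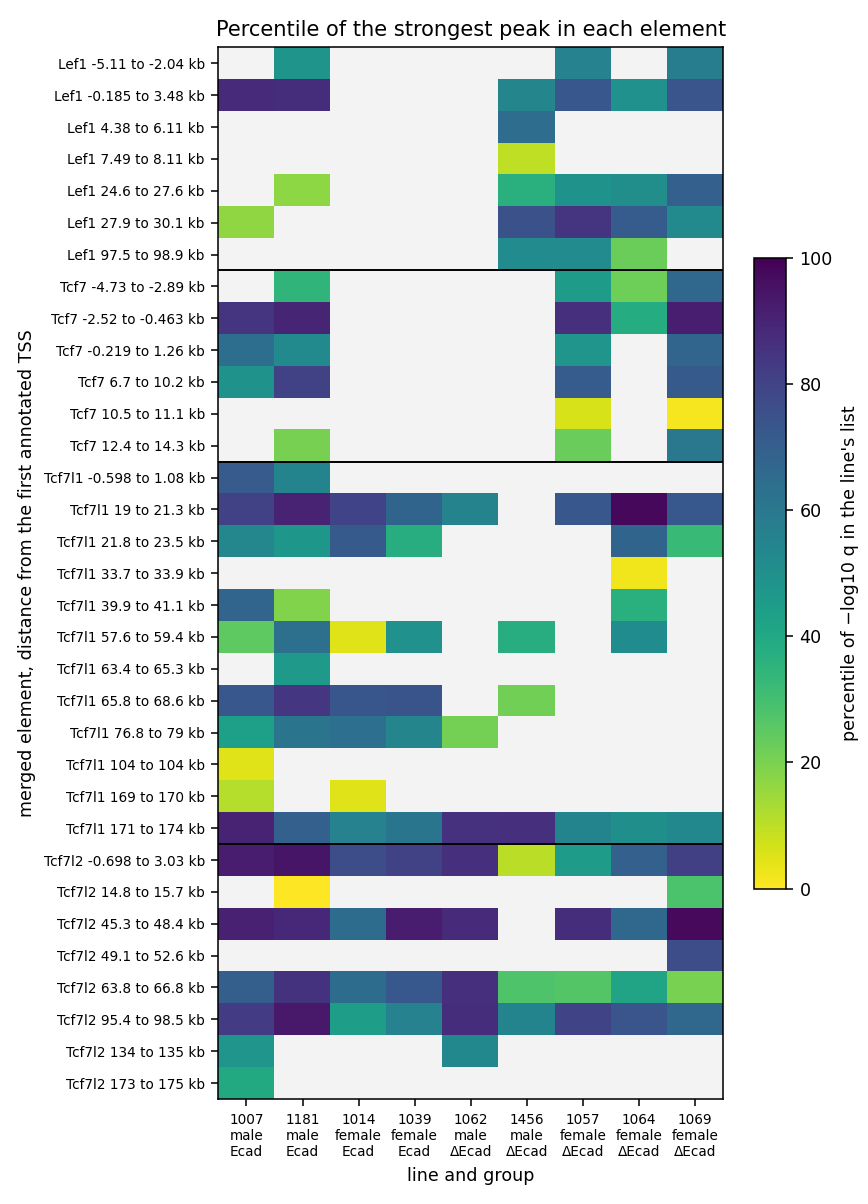
Percentile of the strongest peak in each of the 33 merged elements (rows, given by gene and distance in kb from the first annotated start) in each of the 9 lines (columns); pale cells have no peak. Lef1 and Tcf7 cells are empty in female Ecad lines Ma_1014 and Ma_1039 and male ΔEcad line Ma_1062, and 3 Tcf7l2 elements are filled in every line.

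The sequence recognized by the factors themselves was looked for in the 200 bases around the strongest summit of each element, as CTTTGAA or CTTTGAT on both strands. The motif was chosen after the peaks were seen. It was found in 2 of 33 such windows, against 7.95% of 59644 regions, and over whole elements at 0.421 per kb, against 0.467 per kb in all regions. By gene the rate over whole elements was 0.573 per kb at Lef1, 0.353 at Tcf7, 0.151 at Tcf7l1 and 0.612 at Tcf7l2. The 2 windows are given with the motif, or its reverse complement, in capitals.
Lef1, chr3:131115896-131116095, plus strand, called in line Ma_1456 alone: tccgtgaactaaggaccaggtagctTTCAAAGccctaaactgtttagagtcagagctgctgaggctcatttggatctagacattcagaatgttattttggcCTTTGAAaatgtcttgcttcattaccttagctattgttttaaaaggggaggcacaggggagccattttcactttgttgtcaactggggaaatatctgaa
Tcf7l2, chr19:55792244-55792443, plus strand, called in line Ma_1069 alone: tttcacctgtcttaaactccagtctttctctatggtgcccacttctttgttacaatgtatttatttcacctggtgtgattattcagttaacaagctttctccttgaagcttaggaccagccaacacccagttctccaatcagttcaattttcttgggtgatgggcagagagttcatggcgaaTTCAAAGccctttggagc

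Both elements were called in 1 list each. The count of windows with the motif was near the share of all regions. Its absence from the strongest summits of widely shared elements was thus not read as a result. The intron windows of the elements called in 8 lists are shown beside the windows above, with no capitals because the motif was not found in them. Outside its window, each of these elements held the motif 1 time.
Tcf7l1, chr6:72769207-72769406, minus strand: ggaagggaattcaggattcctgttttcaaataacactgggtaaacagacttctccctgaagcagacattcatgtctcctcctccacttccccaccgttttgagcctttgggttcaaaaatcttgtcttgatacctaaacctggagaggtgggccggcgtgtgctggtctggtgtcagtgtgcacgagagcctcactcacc
Tcf7l2, chr19:55788649-55788848, plus strand: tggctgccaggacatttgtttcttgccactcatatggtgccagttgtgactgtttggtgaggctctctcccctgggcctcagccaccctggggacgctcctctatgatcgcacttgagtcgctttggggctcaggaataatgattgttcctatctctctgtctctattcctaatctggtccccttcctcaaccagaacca

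The AP-1 motif TGACTCA, with its reverse complement TGAGTCA, was found in 1 of 33 summit windows against 3.40% of all regions. The MITF motif, TCACGTG or TCATGTG, was found in 2 of 33 against 4.38%. Neither overlaps the TCF/LEF letters. The 250 bases before the outermost starts held none of the 3 motifs, where 7.48% of RefSeq promoters held the TCF/LEF motif.

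The covered lengths of the 4 genes over the 9 lists did not run in parallel. Pearson's r between pairs ranged from -0.498 for Lef1 and Tcf7l1 to 0.50 for Tcf7 and Tcf7l2, given as a description over 9 lists that differ in length. The protein-coding genes most like Lef1 were Gipc2 (r = 0.963), Ptar1 (0.919) and Bri3 (0.890). Those most like Tcf7 were Dym (0.985), Slc16a9 (0.967) and Dkkl1 (0.967), and those most like Tcf7l1 were Mgat2 (0.981), Cdrt4 (0.980) and Dnaaf2 (0.979). Those most like Tcf7l2 were Sash1 (0.961), Mfhas1 (0.909) and Tbcel (0.905). Each was picked as one of the highest of 13467 to 13469 genes compared, so its r is high by selection.

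The partners of the factors were described from a list of 21 cofactors, of which 20 had a peak. In ΔEcad against Ecad lines 6 of 20 were called lower and 0 higher, with a median difference of -1.84 kb against -0.360 kb over all genes. They were the β-catenin adaptor genes Bcl9l and Pygo2, the corepressor genes Tle2, Tle6 and Aes, and the corepressor gene Ctbp2. Ctbp2 was at 12.7 kb in ΔEcad and 21.6 kb in Ecad lines, and Tle6 was at 1.10 and 3.46 kb (exact permutation p = 0.00794 each, adjusted 0.240). Aes, Tle2 and Tle6 are neighbours on chromosome 10 with overlapping windows, so these 3 calls share peaks. The background for a lower call was 14.7%, as for Tcf7l1.

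In female ΔEcad against the other lines 6 of 20 were called lower and 0 higher, where 20.2% of all genes were called lower, with a median of -2.21 kb against -0.485 kb over all genes. They were Ctnnb1, the β-catenin gene, Bcl9l, Pygo2, Tle6, Chd8 and the acetyltransferase gene Ep300. Ctnnb1 was at 2.54 kb against 6.03 kb (exact permutation p = 0.0476) and Ep300 at 2.46 against 3.45 kb (exact permutation p = 0.0119). Between females and males 3 were called lower in females, Pygo1, Tle1 and Chd8, where 9.97% of all genes were. In the test between the sexes 0 were called, where 5.27% of all genes were.

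Scaling by list length, an alternative added after the values were seen, changed these counts. Per Mb covered by the list, 3 of 20 were called lower and 0 higher in female ΔEcad lines, where 10.6% of all genes were called lower, and Ctnnb1 and Ep300 were no longer called. In females against males 2, Pygo1 and Chd8, were called lower. The share of all genes is not given here for that scaled comparison, so this count cannot be judged. In ΔEcad lines 4 were called lower and 1, Tnik, higher, where 6.97% of all genes were called lower and 2.01% higher.

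At cofactor promoters, 11 of 21 were called in all 9 lists, as were 36.0% of genes with a called promoter, among them Ctnnb1, and that of Ctnnbip1, an inhibitor of β-catenin binding, in 0. Those passing Fisher's exact test in at least 1 comparison were Bcl9 and Tle6, each called in 5 lists with p = 0.0476 for female ΔEcad against the other lines and again for ΔEcad against Ecad, Tle1, with p = 0.0476 for female against male, and Crebbp, with p = 0.00794 for ΔEcad against Ecad. Crebbp, which encodes a coactivator acetyltransferase, was called in 4 lists, all of Ecad lines. In each of these comparisons the promoter was called less often in the group named first. Over all genes 7.80% passed for female ΔEcad against the other lines, 5.30% for ΔEcad against Ecad and 2.77% for female against male.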

How the data were processed

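H3K27ac ChIP-seq was measured in 9 cell lines, and input chromatin in 4 libraries that were not used here. Reads were aligned by the authors to GRCm38 (mm10) with Bowtie2, and the submitters' processing notes also name MACS2 and deepTools (versions 2.4.5, 2.2.7.1 and 3.5.1.0.0); settings and the input used for each list are not given in the sources used here. In the deposited peak lists the fold enrichment is a linear ratio, the −log10 p and −log10 q describe each peak, and the score is 10 times the −log10 q, rounded down, for 99.8% of peaks or more. The lowest deposited −log10 q was 5.00. The other deposited column is the summit offset in bp. The lists hold no counts, so no counting interval could be given.

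Covered length and promoter calls were computed for all genes of GENCODE M21 with Python 3 (numpy, pandas, scipy). Sex and genotype in the labels set the groups. Covered length was compared by exact two-sided permutation tests over lines, promoter calls by the two-sided Fisher's exact test, the genotype difference between sexes by permuting genotype within sex (60 relabellings). A call is an unadjusted exact p under 0.05, read against the share of all genes called, and p-values were also adjusted over all genes by the Benjamini-Hochberg method. The number of genes with an adjusted exact p under 0.05 was 0 in every comparison. Labels do not say whether lines came from separate mice, so p-values measure the spread between lines.

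The scripts were tested on simulated data for the 28502 genes, in which 3.20% to 4.73% of unchanged genes were called. In those data every line had peaks at every gene and the relative noise was the same for all genes, unlike in the deposited lists. The rates thus describe the scripts and not the power of the tests in these lists. The self-test of the sex comparison was first run with a change in female ΔEcad lines alone and recovered 24.0%; the case with opposite changes was added afterwards. Elements were merged peaks. Named elements were those called in all lists, in 1 group alone, or widest at their gene, with others named after their values were seen. The 3 genes of highest Pearson r were named among protein-coding genes with peaks in at least 3 lists, and cofactors where called in covered length or promoter. The members and lists were chosen with earlier results of these data known. Alternatives were the window, threshold, list length, scaling, measure and leaving out each line. RefSeq matched all 4 genes.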

Additional observations from a re-analysis of the deposited data

Results flagged for a closer look

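The genotype difference in covered length at Tcf7 differed between the sexes by 12.7 kb (exact permutation test within sex, p = 0.0333, adjusted over all genes 0.611). Female ΔEcad lines Ma_1057, Ma_1064 and Ma_1069 had 7.90, 1.44 and 10.2 kb against 0 kb in both female Ecad lines, and both male ΔEcad lines had 0 kb against 4.99 and 7.36 kb in the male Ecad lines. In the same test, whose null is no genotype difference in either sex, 5.27% of all genes were called. None of the 20 combinations of gene and pool of lines checked held a line far from the others by Dixon's criterion (0 found). The pools were the Ecad, ΔEcad, female and male lines and the lines other than female ΔEcad. Groups by both sex and genotype were not checked, so this does not show that lines of a group were alike.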

How the results depend on the processing

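Of 148 values recomputed under other settings, 131 were counted as keeping their direction and side of the threshold, and of 252 with a line left out, 223 were. Results that were not called and stayed so are among them. The Tcf7l2 promoter differences were 0, which could not count as reversed, so these tallies are no measure of robustness. The Tcf7 difference between the sexes lost its call with the gene body alone (7.69 kb), the stronger part of each list (8.42 kb) and lists of equal length (11 kb). Per Mb of list, Lef1 and Tcf7 in female ΔEcad against the other lines became calls (163 and 161 bp per Mb). Reversals all concerned differences that were not called. Lef1 in females against males became -0.156 kb with the gene body alone and -0.171 kb with 50 kb flanks. Tcf7 in females against males became -1.58 kb with 50 kb flanks. Tcf7 promoter calls became -10.0 percentage points within 500 bp and with the stronger part of every list, for ΔEcad against Ecad and again for females against males; counted from the RefSeq model start, an alternative added after the peaks were seen, the same 5 lists were called within 1 kb and within 500 bp. Tcf7l2 in female ΔEcad against the other lines became 0.00467 kb with equal lists, 44.7 bp per Mb of list and 0.167 in number of peaks, in ΔEcad against Ecad 16.6 bp per Mb, and in females against males 0.10 peaks. The cause was not tested.

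With a line left out, values ranged as follows. For Lef1, female ΔEcad against others gave 3.07 to 6.03 kb, ΔEcad against Ecad 3.72 to 6.34 kb, females against males -1.33 to 2.10 kb and the sex comparison 0.891 to 11 kb. For Tcf7 these were 2.61 to 6.97 kb, -0.752 to 2.24 kb, -0.752 to 2.24 kb and 10.8 to 15.2 kb. For Tcf7l1, ΔEcad against Ecad gave -9.30 to -7.23 kb. For Tcf7l2, female ΔEcad against others gave -2.89 to 0.105 kb. Tcf7 promoter calls gave -6.67 to 26.7 percentage points for both ΔEcad against Ecad and females against males. In 3 of the 9 sets no exact p under 0.05 was possible in the sex comparison. No paired analysis was possible because the labels give the lines no shared replicate numbers. Depth is unknown, and list length limits what a missing peak can show.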

Other observations

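The 27 genes whose promoters were called in both male Ecad lists and all 3 female ΔEcad lists and in none of the other 4 included, besides Tcf7, the protein-coding genes Sp5, Ifnlr1, Mxra8, Slc7a8, Stx1a and Tlr12. Sp5, at chr2:70474923-70477729, encodes a zinc-finger factor known as a target of Wnt signalling. These genes were picked by their calls and were named after the list was seen, and no test was made of them.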
